A study of Mus musculus with 20 samples.

Results

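Atf3, the MAF genes Maff, Mafg, Mafk and Maf, the C/EBP genes Cebpb and Cebpd, and Jdp2 encode basic leucine zipper (bZIP) transcription factors, and their RNA was followed in cultured mouse hippocampal neurons after a short glutamate pulse with or without added zinc. These 8 genes were taken by symbol from the 24419 genes of the deposited count table. Atf3 and Maff had been picked because they were lower with the zinc chelator than with added zinc, unlike other early genes of the pulse, and the other 6 because they belong to related bZIP families. The difference between chelator and zinc is therefore given below as a description for all 8 genes, with no test, and Atf3 and Maff were tested only in comparisons that do not rest on that difference.

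The bZIP factors bind DNA as dimers, and the choice of partner sets the DNA site and whether a target is activated or repressed. Atf3 is an ATF/CREB family gene that is induced by many kinds of cell stress, in part through ATF4 in the integrated stress response, and is well known as an injury gene of sensory neurons. The small MAF proteins have no activation domain of their own and act mostly as partners of the CNC and BACH factors, such as NRF2, while C/EBP-beta and C/EBP-delta are factors of inflammatory, acute phase and stress responses and C/EBP-beta can pair with ATF4.

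The cultures were dissociated from hippocampi of C57BL6 embryos at embryonic day 18, pooled from 4 embryos, and kept for 10 days in vitro with 4 µM cytosine arabinoside, which kills dividing cells, from day 3 to day 6. One group received 50 µM glutamate with 10 µM of the zinc chelator tris(2-pyridylmethyl)amine (TPA), after 1 minute in TPA alone; the next received 50 µM glutamate with 10 µM ZnCl2; the third received 50 µM glutamate only; and the control received imaging medium with no glutamate. All cultures, control included, were washed in imaging medium at room temperature, exposed for 2 minutes, washed again and lysed after 90 minutes back in their own medium. Each group had 5 libraries of polyadenylated RNA, which the submitters call biological replicates; the labels do not say which came from separate pools of embryos, so p-values measure the spread between these cultures.

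Total counts per library ran between 28692470 and 38767979 with TPA, between 33445137 and 38435627 with zinc, between 35559330 and 40934630 with glutamate alone and between 36106575 and 39765787 in control. All 8 genes passed the filter on low counts, which left 14411 genes. All 11 neuron markers were present. Over the 20 libraries they summed to between 6132 and 7260 CPM (counts relative to library size after TMM scaling). The 7 astrocyte markers summed to between 737 and 952 CPM, and the 8 microglia and macrophage markers to between 2.68 and 4.16 CPM. Glutamate libraries 5 and 4 and zinc library 5 lay farthest from their group means over all genes, so results are also given without these 3, an alternative chosen after seeing the data. In bulk RNA, fewer cells of a type and less RNA per cell cannot be told apart.

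Atf3 lies on mouse chromosome 1 (mm10, 191170297 to 191183333, minus strand). Its level in libraries 1 to 5 was 8.81, 8.15, 8.74, 7.70 and 5.54 CPM with TPA. With zinc it was 15.5, 20.9, 14.7, 10.7 and 5.42 CPM. With glutamate alone it was 12.5, 15.7, 14.5, 15.02 and 5.31 CPM, against 12.3, 10.1, 8.01, 7.80 and 6.02 CPM in control. Most zinc and glutamate libraries were therefore above most TPA and control libraries, but the library numbered 5 was the lowest in all 4 groups, and the groups overlapped in every comparison. The 4 libraries numbered 5 spanned 5.31 to 6.02 CPM, below each of the other 16 libraries, which spanned 7.70 to 20.9 CPM. Library numbers were not named as batches in the labels.

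The group means of Atf3 were 7.79 ± 1.34 CPM with TPA, 13.4 ± 5.78 CPM with zinc, 12.6 ± 4.24 CPM with glutamate alone and 8.85 ± 2.42 CPM in control (SD, n = 5 each). The level with TPA was 0.577 times that with zinc, a log2 difference of -0.79, which is the contrast that picked the gene. This difference was -0.99 without those 3 outlying libraries and -0.89 without the 4 libraries numbered 5. It ranged between -0.99 and -0.58 when 1 library was left out at a time, the smallest size being without zinc library 2. These values come from the libraries that picked the gene, so they describe that difference and do not test it. Against glutamate alone, which shares its TPA libraries with that contrast, the log2 difference with TPA was -0.69, given with no test.

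**Figure D1:**
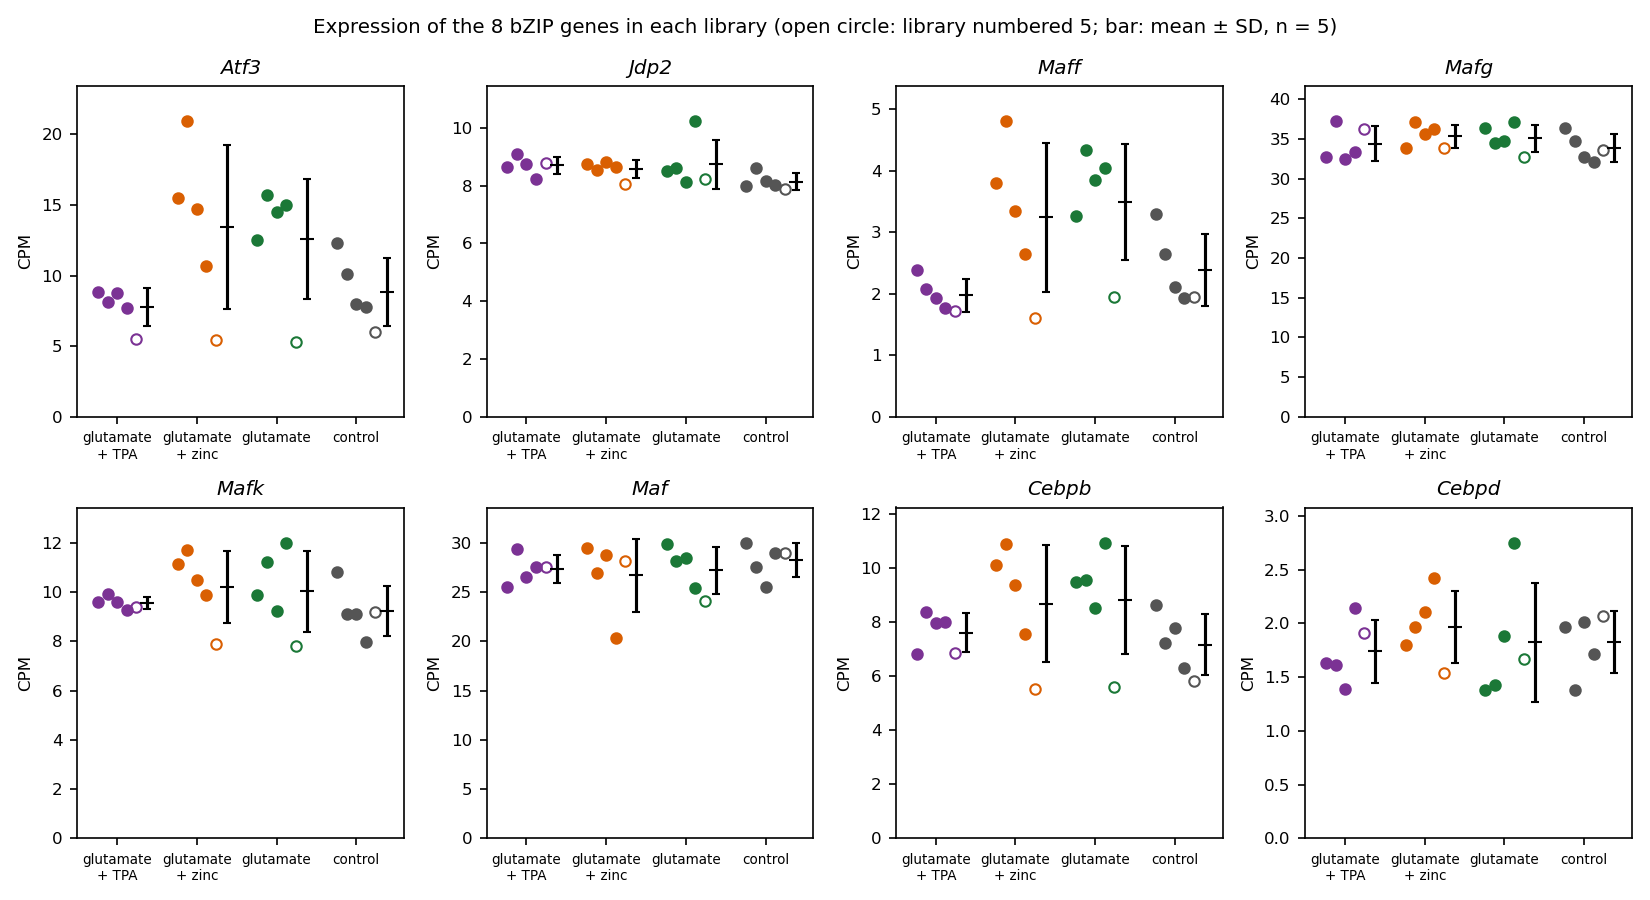
CPM of each of the 8 genes (vertical axis, from 0) in the glutamate with TPA, glutamate with zinc, glutamate and control libraries, with replicates 1 to 5 drawn left to right, an open circle for the library numbered 5, and a black bar for mean ± SD (n = 5). Atf3 and Maff spread most within the zinc and glutamate groups, where the open circles are lowest, while Mafg and Jdp2 stay nearly level.

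Maff, a small MAF gene, lies on chromosome 15 (mm10, 79346621 to 79359076, plus strand). Its level in libraries 1 to 5 was 2.38, 2.07, 1.93, 1.77 and 1.72 CPM with TPA. With zinc it was 3.81, 4.80, 3.35, 2.64 and 1.60 CPM. With glutamate alone it was 3.27, 4.33, 3.86, 4.05 and 1.94 CPM, against 3.296, 2.65, 2.11, 1.94 and 1.94 CPM in control. The same library, number 5, was lowest in 3 of the 4 groups, and 4 of 5 libraries with zinc and with glutamate alone lay above every TPA library. Maff was picked for being lower with TPA than with zinc, so this order is a description only. In the contrast that picked it, the level with TPA was 0.606 times that with zinc, a log2 difference of -0.72, and it was -0.82 against glutamate alone, both given with no test. The log2 difference between TPA and zinc was -0.89 without the 3 libraries named above and -0.84 without the 4 libraries numbered 5.

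The first question that does not rest on the choice of genes was what the glutamate pulse alone did. None of the 8 genes passed the test for glutamate against control (edgeR quasi-likelihood test, Benjamini-Hochberg adjusted p under 0.05 over all 14411 genes), where 0.0208% of all genes were called. Nor did the glutamate and control libraries separate for any of the 8, while they did for 0.985% of all genes. DESeq2 and limma-voom also called 0 of 8, and at an unadjusted p under 0.05 each of the 3 tools had 1 of 8 (in edgeR, 4.98% of all genes). Maff had the smallest p of the 8 in edgeR, at 0.55 ± 0.24 on the log2 scale (SE), with an unadjusted p of 0.0301 that became 0.95 after adjustment. Atf3 stood at 0.51 ± 0.31 (edgeR adjusted p of 0.95), with a 95% interval of -0.14 to 1.16, which reaches 2.23-fold at its upper end. Without those 3 outlying libraries, the log2 fold changes were 0.68 for Maff and 0.69 for Atf3, with edgeR adjusted p-values of 0.0685 and 0.127. That alternative leaves out glutamate 5, low for both genes, but keeps control 5. Leaving out all 4 libraries numbered 5, also chosen after seeing the data, gave 0.64 for Maff and 0.60 for Atf3. Their edgeR adjusted p-values were then 0.308 and 0.318.

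The same pulse did move early genes in these libraries. Fosb, an AP-1 subunit, averaged 18.7 ± 3.07 CPM with glutamate and 8.05 ± 0.693 CPM in control (SD, n = 5 each), a log2 fold change of 1.22 ± 0.12 with an edgeR adjusted p of 1.3e-05. Klf4, a zinc finger factor, averaged 2.11 ± 0.507 CPM with glutamate and 0.715 ± 0.132 CPM in control, a log2 fold change of 1.56 ± 0.18 with an edgeR adjusted p of 0.0001. The log2 changes of Atf3 and Maff were thus smaller than those of Fosb and Klf4. The SD of Atf3 within the glutamate group, 4.24 CPM, was larger than the difference of its means. That SD includes glutamate library 5 at 5.31 CPM, the rest of the group being at 12.5 to 15.7 CPM.

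Averaging all 3 stimulated groups and setting them against control also called none of the 8 genes (0.0486% of all genes were called), by edgeR, DESeq2 or limma-voom, and 0 of 8 had an unadjusted p under 0.05 (4.45% of all genes in edgeR). In this comparison the log2 fold change was 0.31 ± 0.26 for Atf3, 0.25 ± 0.20 for Maff and 0.22 ± 0.14 for Cebpb (SE, edgeR). With 1 library left out at a time, these were as low as 0.20 for Atf3 (without control 5) and as high as 0.39 for Maff (without control 1). Taken group by group against control, the log2 fold change of Atf3 was -0.18 ± 0.32 with TPA, 0.61 ± 0.31 with zinc and 0.51 ± 0.31 with glutamate alone; the first was -0.033 without control 1 and the second 0.40 without zinc 2. The values for Maff were -0.27 ± 0.25, 0.45 ± 0.24 and 0.55 ± 0.24, and likewise the first was -0.13 without control 1 and the second 0.27 without zinc 2. The values with TPA and with zinc are given with no test, since they share libraries with the contrast that picked both genes.

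Cebpb, which encodes C/EBP-beta, lies on chromosome 2 (mm10, 167688915 to 167690432, plus strand). Its level in libraries 1 to 5 was 6.82, 8.36, 7.96, 8.01 and 6.86 CPM with TPA. With zinc it was 10.1, 10.9, 9.36, 7.54 and 5.51 CPM. With glutamate alone it was 9.49, 9.55, 8.50, 10.9 and 5.61 CPM, against 8.64, 7.22, 7.78, 6.30 and 5.82 CPM in control. The group means were 7.60 ± 0.711 CPM with TPA, 8.68 ± 2.16 CPM with zinc, 8.81 ± 1.99 CPM with glutamate alone and 7.15 ± 1.13 CPM in control (SD, n = 5 each), and the library numbered 5 was again lowest in 3 of 4 groups. Cebpb had a log2 fold change of 0.30 ± 0.17 for glutamate against control, with an edgeR adjusted p of 0.95.

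Against control, 0 of the 6 genes that can be tested there passed with zinc (0.0416% of all genes called) and 0 of 6 passed with TPA (0.0694% called). Against glutamate alone, 0 of 6 passed with zinc and 0 of 6 with TPA, where 0% of all genes were called, while 862 and 1030 genes had an unadjusted p under 0.05. In these 4 comparisons none of the 6 genes had an unadjusted p under 0.05 by edgeR, DESeq2 or limma-voom; in edgeR, 11.1% of all genes had one with zinc against control, 3.09% with TPA against control, 5.98% with zinc against glutamate and 7.15% with TPA against glutamate. The libraries of the compared groups overlapped for all 8 genes in all 7 comparisons, TPA against zinc included. They did not overlap for 0.0416% of all genes with all stimulated groups against control, 2.66% with zinc against control, 1.33% with TPA against control, 0.701% with zinc against glutamate, 1.03% with TPA against glutamate and 3.13% with TPA against zinc. Cebpb was nearest, with a log2 fold change of 0.29 ± 0.17 for zinc against control and an edgeR adjusted p of 0.552. This fold change was 0.19 without zinc 2, and 0.41 with an edgeR adjusted p of 0.0535 without those 3 outlying libraries. Without the 4 libraries numbered 5 it was 0.34, with an edgeR adjusted p of 0.22. For TPA against glutamate, the Cebpb log2 difference was -0.22 ± 0.17, with an edgeR adjusted p of 0.811; it was -0.35 without glutamate 5 and -0.13 without glutamate 4.

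**Figure D2:**
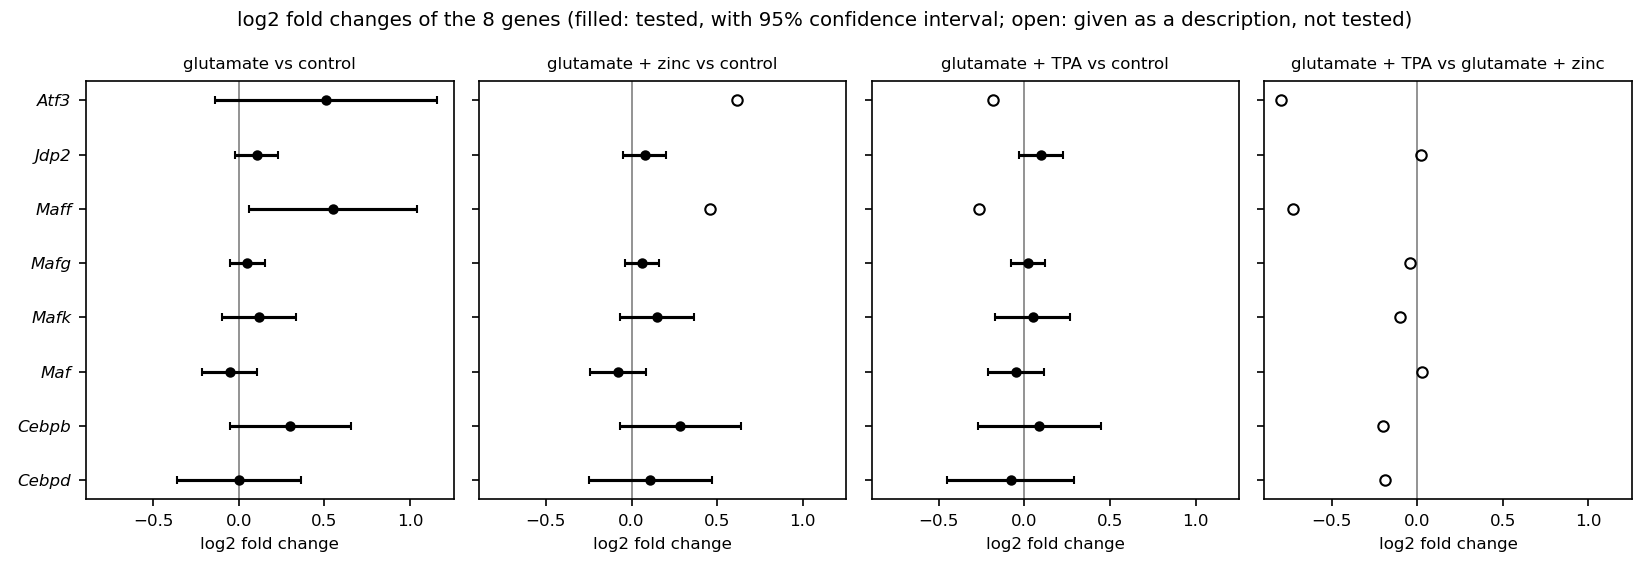
log2 fold changes of the 8 genes (horizontal axis) in 4 comparisons, from the edgeR fit of all 20 libraries; filled points carry 95% confidence intervals and open points are values given with no test because the genes were chosen by that contrast or share its libraries. Most intervals include 0, the Maff interval for glutamate against control does not before adjustment, and Atf3 and Maff lie at -0.79 and -0.72 for glutamate with TPA against glutamate with zinc.

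Mafk, another small MAF gene on chromosome 5 (mm10, 139791536 to 139802652, plus strand), followed the same libraries within a narrower range. It spanned 9.27 to 9.90 CPM with TPA, 7.88 to 11.7 CPM with zinc, 7.82 to 11.997 CPM with glutamate alone and 7.96 to 10.8 CPM in control. The 5 TPA libraries lay inside the range of each of the other 3 groups. Its log2 difference between TPA and zinc was -0.099, a description only, and -0.043 without zinc 2.

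Mafg, the small MAF gene with the highest level per length of the 8, lies on chromosome 11 (mm10, 120628351 to 120633547, minus strand). It spanned 32.4 to 37.2 CPM with TPA, 33.8 to 37.1 CPM with zinc, 32.7 to 37.1 CPM with glutamate alone and 32.0 to 36.4 CPM in control. The 20 libraries differed by at most 1.16-fold, and its 95% interval for glutamate against control was -0.051 to 0.15 on the log2 scale.

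Jdp2, a close relative of Atf3 that binds Jun proteins, lies on chromosome 12 (mm10, 85599105 to 85639878, plus strand). It spanned 8.25 to 9.10 CPM with TPA, 8.06 to 8.83 CPM with zinc, 8.13 to 10.2 CPM with glutamate alone and 7.89 to 8.62 CPM in control. Glutamate library 4, at 10.2 CPM, stood above all others, and the log2 fold change for glutamate against control was 0.10 ± 0.061 (edgeR adjusted p of 0.95), and 0.043 without that library. Jdp2 and Atf3 therefore had unlike spreads, 1.296-fold and 3.94-fold between their lowest and highest libraries.

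Maf, a large MAF gene with an activation domain of its own, lies on chromosome 8 (mm10, 115703253 to 115706894, minus strand). It spanned 25.5 to 29.4 CPM with TPA, 20.3 to 29.5 CPM with zinc, 24.1 to 29.9 CPM with glutamate alone and 25.5 to 30.0 CPM in control, and zinc library 4 was the lowest of the 20. Cebpd, which encodes C/EBP-delta, lies on chromosome 16 (mm10, 15887286 to 15889545, plus strand) and had 46 to 110 counts per library. Cebpd spanned 1.39 to 2.15 CPM with TPA, 1.54 to 2.42 CPM with zinc, 1.38 to 2.75 CPM with glutamate alone and 1.38 to 2.07 CPM in control. Exons of Spidr overlap those of Cebpd in the deposited annotation, and no source used here says if reads were counted by strand, so the Cebpd counts are uncertain.

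Per length, in the deposited TPM values, which take gene length into account, the mean levels over the 20 libraries were 63.8 for Mafg, 22.6 for Maf, 16.3 for Atf3, 16 for Cebpb, 13.7 for Jdp2, 10.4 for Mafk, 3.22 for Maff and 2.45 for Cebpd. Atf3, Cebpb and Jdp2 are close in this order: Atf3 alone averaged 11.8 TPM with TPA, 20.5 TPM with zinc, 19.4 TPM with glutamate and 13.4 TPM in control, a range that covers both neighbours. The SD of log2 CPM within groups was 0.55 for Atf3 and 0.42 for Maff, against a median of 0.11 over all genes tested, which put them at percentiles 97.9 and 93.6 of those genes. It was 0.30 for Cebpb, 0.28 for Cebpd, 0.18 for Mafk, 0.14 for Maf, 0.080 for Jdp2 and 0.074 for Mafg.

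Atf3, Maff, Cebpb and Mafk moved together from library to library. Over the 20 libraries, which differ in depth and share 4 treatments, the Pearson r of log2 CPM with Atf3 was 0.957 for Maff, 0.901 for Cebpb and 0.820 for Mafk. It was 0.477 for Mafg, 0.379 for Jdp2, 0.161 for Cebpd and 0.117 for Maf. After each group's mean was taken off, the first 3 values were 0.967, 0.920 and 0.842, so the pattern lies within groups as well. These and the correlations below are descriptions.

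**Figure D3:**
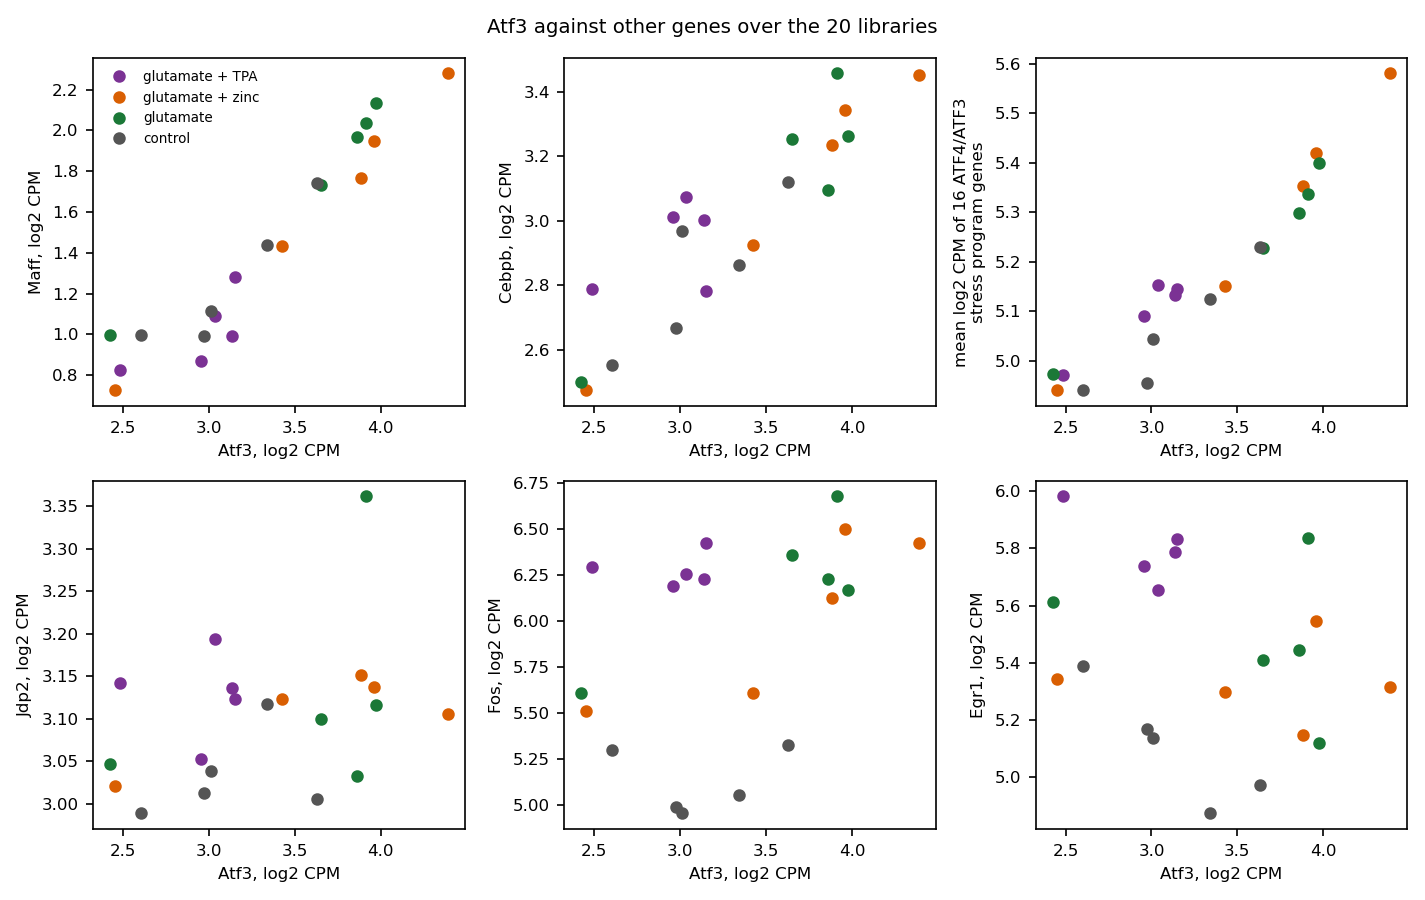
Each of the 20 libraries by its Atf3 level (horizontal axis, log2 CPM) and the level of Maff, Cebpb, Jdp2, Fos and Egr1 (log2 CPM) or the mean of 16 stress program genes (mean log2 CPM), coloured by group. The points of Maff, Cebpb and the stress program rise with Atf3 across all 4 groups, with r of 0.957, 0.901 and 0.958, while Fos separates the stimulated groups from control and Egr1 shows r of -0.286.

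The genes whose pattern was most like that of Atf3, among 11878 others with an established symbol and a mean of at least 1 CPM, were Ppp1r15a (r 0.989), Sesn2 (r 0.982) and Mthfd2 (r 0.976). Ppp1r15a encodes GADD34, which helps end the block on translation in the integrated stress response; Sesn2 encodes sestrin 2, a stress-induced regulator of nutrient signalling; and Mthfd2 encodes a mitochondrial folate enzyme. All 3 stand in the list of ATF4 and ATF3 stress program genes used here. Ppp1r15a spanned 41.5 to 61.4 CPM with TPA, 42.9 to 93.3 CPM with zinc, 41.9 to 80.1 CPM with glutamate alone and 45.7 to 63.9 CPM in control, and its lowest library was number 5 in every group. For Maff the 3 most like genes were Stc2 (r 0.967), Hyou1 (r 0.957), an endoplasmic reticulum chaperone gene, and Atf3 (r 0.957).

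Cebpb was most like Sesn2 (r 0.917), Popdc3 (r 0.909) and Bpifc (r 0.909), and Mafk was most like Dnajb2 (r 0.909), Gaa (r 0.901) and Cebpb (r 0.897). Jdp2 was most like Gadd45g (r 0.799), Ift20 (r 0.754) and the early gene Ier2 (r 0.744). Mafg was most like Vsig10l (r 0.80), Maf like Zfp958 (r 0.875) and Cebpd like Bmp7 (r 0.746). Without the 2 farthest libraries of each member, the r fell to 0.721 for Maf with Zfp958, 0.64 for Jdp2 with Gadd45g and 0.619 for Cebpd with Bmp7. It was 0.789 for Mafg with Vsig10l, 0.886 for Cebpb with Sesn2 and 0.866 for Mafk with Dnajb2.

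The stress list holds 16 genes, all tested, which include targets of ATF4 in amino acid supply, translation control and growth arrest. Atf3 had an r over 0.8 with 9 of the 16, against 3.39% of 11879 genes compared, and the r with the mean of the list was 0.958 for Atf3, 0.929 for Maff, 0.907 for Cebpb and 0.857 for Mafk. Other lists followed Atf3 as well: the r was 0.902 with the mean of the NRF2 and small MAF target genes and 0.90 with that of the ATF, CREB and BATF genes, but 0.278 with that of the nerve injury and regeneration genes. None of the 16 stress genes passed the test in any of the 7 comparisons. Their median log2 fold change against control was -0.0094 with TPA, 0.29 with zinc and 0.20 with glutamate alone, where the median of all genes was -0.00095, 0.0016 and -0.0020. Between TPA and zinc, 15 of 16 had a negative log2 difference, with a median of -0.15 (-0.0011 for all genes). Atf3 was picked by this contrast and 9 of the 16 follow it closely, so this lean is a description only. Psat1, a serine synthesis gene with an r of 0.923 with Atf3, had a log2 difference of -0.42 ± 0.10 there (SE), also a description.

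**Figure D4:**
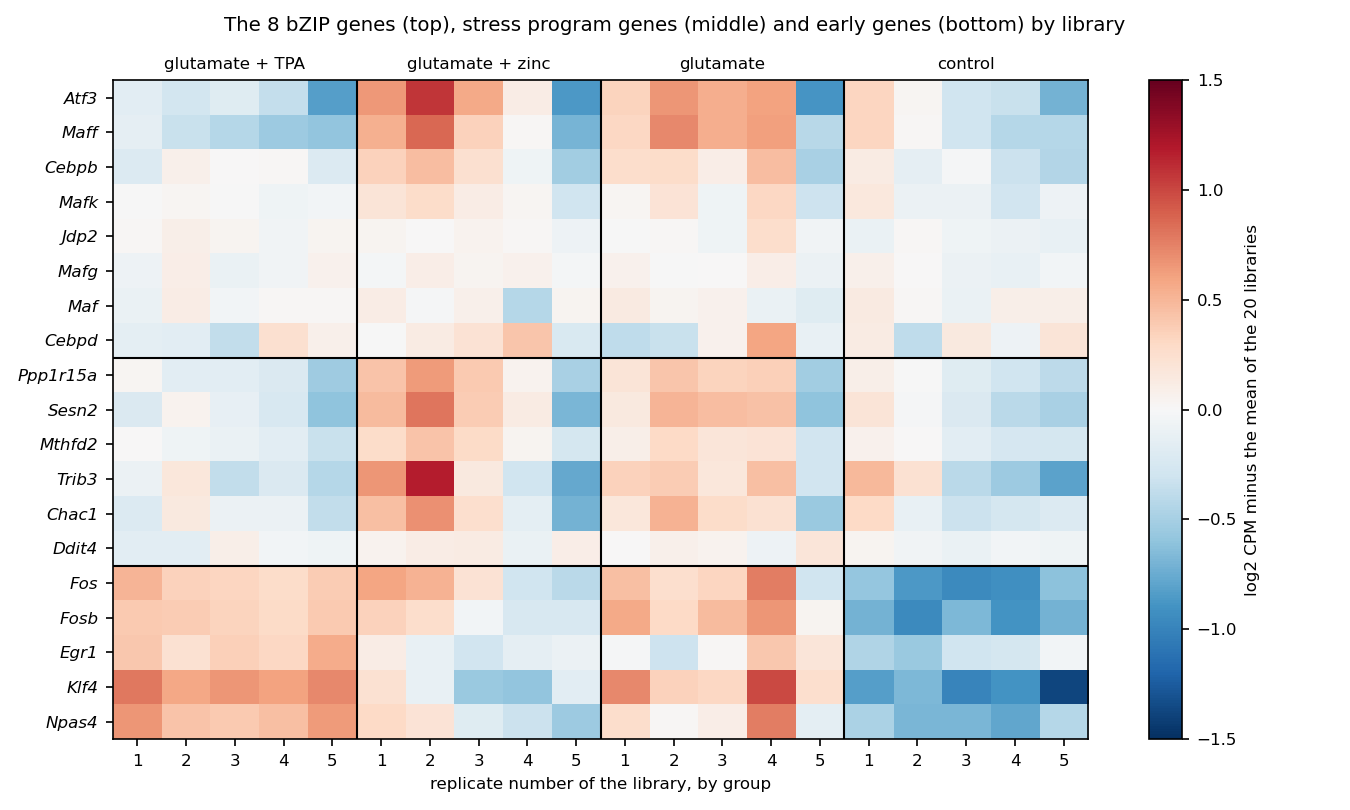
log2 CPM of each gene minus its mean over the 20 libraries, for the 8 genes (top), 6 stress program genes, namely the 3 most like Atf3 and the first 3 of the list (middle), and 5 early genes (bottom), with columns ordered by group from glutamate with TPA to control. Atf3, Maff and most of the stress genes share their high libraries (zinc 2) and low libraries (number 5), while Fos, Fosb and Klf4 are low in all 5 control libraries.

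That Atf3 and Maff differ from other early genes between TPA and zinc was part of their choice, so the early genes are given beside them as a description. Atf3 had an r of 0.451 with Fos, 0.112 with Klf4 and -0.286 with Egr1 over the 20 libraries, and with group means taken off these were 0.753, 0.353 and -0.335. Of the 7 FOS and JUN genes, all tested, 3 rose with TPA against control (Fosb, Fos and Junb), 1 with zinc and 1 with glutamate alone (Fosb in both), and none fell. Of the 19 kinase and early phase regulators, 5 rose with TPA against control, 0 with zinc and 1 with glutamate alone. Of all genes, 0.0694%, 0.0416% and 0.0208% were called in these comparisons, in that order. Such counts do not test a difference between the stimulated groups. Between TPA and zinc, 5 of the 7 FOS and JUN genes had a positive log2 difference and 2 a negative one (median 0.10). None of the 7 was called there. Of the 19 regulators, 15 were positive and 4 negative there (median 0.11), and 2 rose, where 0.513% of all genes were called.

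The partners and targets of the MAF and C/EBP factors gave few calls. Of the 9 CNC, BACH and other MAF genes, 7 were tested and 0 passed in any comparison; Nfe2l1 had the smallest p for glutamate against control, with a log2 fold change of 0.094 ± 0.035 (edgeR adjusted p of 0.95). Of 13 NRF2 and small MAF target genes, all tested, 0 passed; Hmox1, which encodes heme oxygenase, had a log2 difference of -0.51 ± 0.17 between TPA and zinc (edgeR adjusted p of 0.15). Of 4 tested C/EBP relatives, only Cebpz fell, between TPA and zinc, by 0.17 ± 0.037 on the log2 scale (edgeR adjusted p of 0.037). In that comparison, which also picked Atf3 and Maff, 0.513% of all genes were called. Its count of calls ranged from 5 to 899 with 1 library left out at a time. The Cebpz call was not followed through such alternatives. Cebpz is a nuclear protein outside the bZIP family. Of the 13 ATF, CREB and BATF genes, the 9 nerve injury and regeneration genes and the 4 C/EBP inflammatory targets tested, 0 passed in any comparison.

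The summed neuron markers moved against Atf3 over the 20 libraries, with an r of -0.881, and also against Maff (-0.883), Cebpb (-0.836) and Mafk (-0.794). That sum ranged over 6421 to 6930 CPM with TPA, 6132 to 7260 CPM with zinc, 6218 to 6900 CPM with glutamate alone and 6389 to 6924 CPM in control. The sum of 8 interneuron markers moved with these 4 genes, with an r of 0.60 to 0.68, and that of 7 oligodendrocyte lineage markers with Cebpd (r 0.674). The astrocyte sum had an r of -0.606 with Mafk, -0.520 with Jdp2, -0.420 with Cebpb, -0.393 with Atf3 and -0.366 with Maff, and the microglia sum one of -0.203 with Atf3. The part of these differences in the results was not tested.

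The RefSeq promoter windows, 250 bases before to 50 after each start (GRCm38.p6, the assembly of mm10), covered 6 of the 8 genes in 10 windows; Maf and Cebpd had none. Stretches of 3 windows are printed because they hold matches to sites that ATF, CREB and C/EBP dimers bind. These windows were picked with the library patterns of their genes known. Capitals mark the matches, each stretch is written 5′ to 3′ on the strand of the gene, and the stretches are chr1:191183336-191183583 (minus), chr15:79347270-79347519 (plus, the second of 3 Maff starts) and chr12:85599228-85599415 (plus, the second of 3 Jdp2 starts). The last 5 bases of the Atf3 stretch lie in an exon of the GENCODE annotation.
Atf3: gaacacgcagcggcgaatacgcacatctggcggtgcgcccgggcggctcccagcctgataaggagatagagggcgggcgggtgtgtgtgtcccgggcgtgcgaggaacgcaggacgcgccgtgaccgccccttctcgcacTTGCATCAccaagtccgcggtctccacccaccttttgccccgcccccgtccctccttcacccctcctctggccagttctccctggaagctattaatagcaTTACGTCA
Maff: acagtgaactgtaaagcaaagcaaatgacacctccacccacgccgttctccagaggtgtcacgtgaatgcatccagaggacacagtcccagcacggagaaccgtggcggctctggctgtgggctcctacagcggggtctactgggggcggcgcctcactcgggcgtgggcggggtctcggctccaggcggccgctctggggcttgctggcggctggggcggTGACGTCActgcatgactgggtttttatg
Jdp2: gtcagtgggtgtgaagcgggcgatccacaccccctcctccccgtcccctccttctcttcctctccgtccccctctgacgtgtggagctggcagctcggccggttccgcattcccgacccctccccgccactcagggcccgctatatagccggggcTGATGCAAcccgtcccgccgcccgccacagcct

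The Atf3 stretch holds TTACGTCA, a relative of the cyclic AMP response element TGACGTCA, at -10 to -3 from the start, and at -110 to -103 the opposite strand of TGATGNAA, the form of the C/EBP-ATF response element that ATF4 and C/EBP-beta dimers bind. Maff holds TGACGTCA at -29 to -22, and Jdp2 holds TGATGNAA at -33 to -26. Of 32851 windows of the same length, 0.499% hold TTACGTCA, 1.79% hold TGACGTCA and 3.97% hold TGATGNAA on either strand. The motifs were chosen after the Atf3 sequence had been read, so these matches describe the sequence only. A link between the motifs and the RNA levels was not tested.

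**Figure D5:**
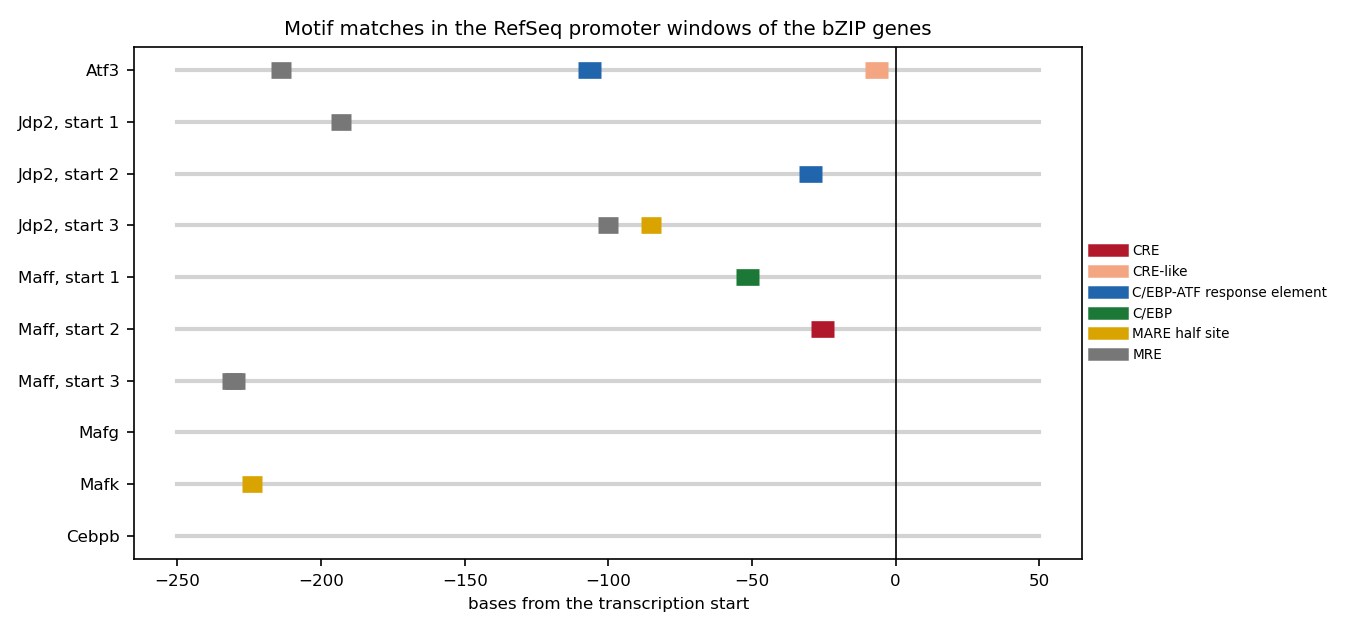
Positions of motif matches on both strands (coloured blocks) in the 10 promoter windows of 6 genes, by bases from the transcription start (horizontal axis, from -250 to 50). Atf3 has matches for the CRE-like, C/EBP-ATF and metal response (MRE) motifs, Maff for a CRE at its second start, and Mafg and Cebpb for none of the 6 motifs drawn.

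Metal response elements, TGCACNC or TGCGCNC on either strand, were matched once in the Atf3 window, once in each of 2 Jdp2 windows and in overlapping form in 1 Maff window, while 25.7% of all windows hold one. A C/EBP site, TTGCNNAA, was found at -55 to -48 of the first Maff start (10.8% of windows), and the core of the MAF recognition element, TGCTGAN, in 1 Jdp2 window and in the Mafk window (19.4% of windows). AP-1 sites, TGANTCA, and the serum response CArG box were in none of the 10 windows, against 7.81% and 1.63% of all windows.

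The authors' deposited table for glutamate against control lists an adjusted p of 1 for all 8 genes, and only 11 genes in all under 0.05. In the authors' deposited tables for zinc or TPA against control or glutamate, the 6 genes other than Atf3 and Maff were looked at. None of these 6 has an adjusted p under 0.05, and Cebpd has no adjusted p listed for zinc against control. Few genes of any kind passed there: 59 for zinc and 10 for TPA against control. Against glutamate it was 1 for zinc and 1 for TPA. The fold changes in the glutamate against control table are smaller in size than those fitted here. For Maff the authors' deposited table lists a log2 fold change of 0.12 there, against 0.55 from the counts. Its SE is smaller as well, 0.048 against 0.24, so these sizes cannot be compared directly. The reason was not tested.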

How the data were processed

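Polyadenylated RNA was sequenced from 20 mouse hippocampal cultures, 5 in each of 4 groups, with a stranded kit per the labels' protocols. The deposited gene counts are raw whole-number counts; per the submitters' processing notes the build was mm10 and the tools named include HISAT2 2.1.0, featureCounts, Trimmomatic 0.36, SAMtools 1.3.1 and DESeq2 1.14.1, with no strand setting named. The deposited TPM values were used for levels per length only. The log2 fold changes and p-values of the authors' deposited tables were copied, not tested; the sign of each table was checked against the counts, and the table for TPA and zinc is zinc over TPA.

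Counts were fitted in edgeR 4.0.16 (R 4.3.3) with a filter on low counts (filterByExpr), TMM scaling and 1 quasi-likelihood model of 4 group means over the 20 libraries, with p-values adjusted by Benjamini-Hochberg over 14411 genes, which hold 99.98% of all counts. Robust estimation was chosen after several settings of the fit had been run (robust or not, the older quasi-likelihood method, library sizes kept or recomputed after the filter), because it gave the counts of calls of an earlier analysis of these data; with it off, 6 genes were called for glutamate against control in place of 3, and no member changed its call. SEs were computed from the coefficient and the F statistic. CPM use TMM library sizes, and log2 CPM a prior count of 2. DESeq2 1.42.0 and limma-voom (limma 3.58.1) were alternatives. Total counts per library are given with the groups, and their depth limits the precision of Cebpd and Maff most. Chi-square comparison of the 40 pairs of libraries within groups found no duplicates (2.35 to 28.8 per gene).

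The members, gene lists, markers and motifs were chosen with earlier results of these data known, and the motifs after reading the promoter sequences. Named genes were all 8 members, in each list the genes past the threshold or those with the smallest p, and the 3 genes most like each member. Same-numbered libraries were not treated as pairs in the main fit, as the labels do not name the numbers as batches. Of 30 pairs of deviations, 11 had a correlation over 0.1. The lowest was -0.070 and the highest 0.497, between glutamate 5 and zinc 5. Whether same-numbered libraries share an origin was not tested.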

Additional observations from a re-analysis of the deposited data

Results flagged for a closer look

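Of 32 sets of 5 libraries (8 genes in 4 groups), 2 held a library far from the others; chance gives about 1 in 20. Jdp2 in glutamate library 4 was the highest of its group at 10.2 CPM, against 8.13 to 8.62 CPM in the other 4. Maf in zinc library 4 was the lowest of its group at 20.3 CPM, against 26.9 to 29.5 CPM in the other 4. Glutamate library 4 is 1 of the 3 libraries farthest from their group means over all genes; the part of this in the Jdp2 value was not tested.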

How the results depend on the processing

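No member passed where it was tested: all 8 in glutamate against control (21 alternatives) and in all stimulated groups against control (30), and the 6 other than Atf3 and Maff in zinc or TPA against control and against glutamate (21 each). None was tested between TPA and zinc. The lowest adjusted p was 0.0535 (edgeR, Cebpb, zinc against control, without glutamate 5, glutamate 4 and zinc 5). For Cebpb in that comparison, the edgeR adjusted p was 0.22 without the 4 libraries numbered 5. The replicate number as a block gave adjusted p-values in edgeR of 0.549 for Atf3 and 0.381 for Maff in glutamate against control, and left every call of a tested member as it was; of 20 libraries 9 correlated best with one of their own number, as a hint from the data.

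The counts of genes called over the whole table moved more. For glutamate against control, 3 in the fit above, they were 5 with DESeq2 size factors, 14 in DESeq2, 5 with a minimum mean of 1 CPM, 6 with robust estimation off and 100 without the 3 outlying libraries. For all stimulated groups (7) they were 16 in DESeq2, 3 with no filter and 13 without the 3 libraries. For zinc against control (6) they were 64 in DESeq2, 39 with the replicate block and 231 without the 3 libraries. For zinc against glutamate (0) they were 2 in DESeq2 and 1 without the 3 libraries, and for TPA against glutamate (0) they were 1 in DESeq2, 551 without the 3 libraries and 2 without the 4 libraries numbered 5. For TPA against zinc (74) they were 37 with library size alone, 437 in DESeq2, 41 with no filter, 422 with the replicate block, 6 with the groups compared alone, 1149 without the 3 libraries and 184 without the 4. With 1 library left out at a time they ranged from 2 to 5 (glutamate against control), 3 to 11 (all stimulated), 3 to 100 (zinc against control, highest without zinc 4), 6 to 10 (TPA against control), 0 to 3 (zinc against glutamate), 0 to 2 (TPA against glutamate) and 5 to 899 (TPA against zinc, lowest without zinc 3 and highest without zinc 4). The cause was not tested.

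Log2 values near 0 changed sign. Cebpd for glutamate against control was 0.017 with library size alone, 0.0022 with no filter, 0.00026 with a minimum mean of 1 CPM, 0.0024 with the groups compared alone and 0.080 without the 4 libraries numbered 5; for all stimulated groups it was -0.00080 in limma-voom, -0.00053 with the replicate block and -0.043 without the 3 libraries. Without the 3 libraries, Maf was 0.031 for glutamate against control and -0.080 for TPA against glutamate, Jdp2 was 0.046 for zinc and 0.047 for TPA against glutamate, Cebpb was 0.046 for zinc against glutamate and Cebpd was 0.15 for TPA against glutamate. Maf for TPA against glutamate was also -0.0085 with library size alone and -0.040 without the 4 libraries, and Mafg for TPA against control was -0.0030 without the 4.

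With 1 library left out, Cebpd ranged from -0.20 to 0.086 (glutamate against control), -0.078 to 0.060 (all stimulated) and -0.16 to 0.12 (TPA against glutamate). Maf ranged from -0.11 to 0.0071 (zinc against control), -0.069 to 0.058 (zinc against glutamate) and -0.038 to 0.039 (TPA against glutamate), and Mafg from -0.0081 to 0.048 (TPA against control) and -0.017 to 0.033 (zinc against glutamate). Jdp2 ranged from -0.056 to 0.036 (zinc) and -0.033 to 0.055 (TPA against glutamate), Mafk from -0.052 to 0.11 (zinc) and -0.15 to 0.0030 (TPA against glutamate), and Cebpb from -0.15 to 0.11 (zinc against glutamate). Atf3 and Maff for zinc against glutamate, given with no test, ranged from -0.12 to 0.30 and from -0.28 to 0.070. Maff and Cebpd, at 52 to 188 and 46 to 110 counts a library, are the members with the fewest counts. The part of depth in their spread was not tested.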
